A study of Arabidopsis thaliana with 6 samples.

Results

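The acyl desaturase (ADS) family of *Arabidopsis thaliana* was described here at 9 loci in inflorescences of the *stk ces-4 bee1 bee3* quadruple mutant and of wild-type Col-0 plants. The loci were taken from a list of gene identifiers, *ADS1* (AT1G06080), *ADS2* (AT2G31360), *ADS3* (AT3G15850, also called *FAD5*) and 6 ADS-like genes. Of these 9 loci, 8 were among the 21799 genes with values and 7 had enough signal to enter the comparison of 21287 genes. The level of the ninth, AT1G06120, was not analysed here, and only its sequence and position are described. The family was chosen by the measured difference of its members between these genotypes, so the levels and fold changes of the members are given as a description, with no test.

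The study followed the development of the transmitting tract, the tissue inside the pistil through which pollen tubes grow, and RNA was sequenced from 2 genotypes. The quadruple mutant carried *stk*, *ces-4*, *bee1* and *bee3*, which disrupt the MADS-domain factor SEEDSTICK (STK) and the basic helix-loop-helix factors CESTA (CES), BRASSINOSTEROID ENHANCED EXPRESSION1 (BEE1) and BEE3. *ces-4* is a T-DNA insertion allele. The wild type was Col-0. Both genotypes were grown at 22 °C in long days after 2 days of cold stratification of the seeds. Each of the 3 replicates per genotype was 1 g of whole inflorescences up to flower stage 12, pooled from several plants. The protocol text attached to the wild-type samples names *ces-2* in the place of *ces-4*, and every label of the mutant samples names *ces-4*. The tissue holds many cell types, and fewer cells of a type cannot be told apart from less RNA per cell.

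Plant ADS proteins are membrane desaturases related to the acyl-CoA desaturases of animals and yeast. They use a di-iron centre held by conserved histidines to place a double bond in a saturated acyl chain. FAD5, the plastid member, makes the first double bond of the palmitic acid carried by galactolipids. ADS1, ADS2 and ADS4 desaturated fatty acids when expressed in yeast, very-long-chain ones among them, and *ADS2* is known for its part in the response to cold.

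Sequence shared by the members shows how the loci are related. A stretch of 60 coding bases around 1 of the histidine motifs of the active site was read from each locus in the TAIR10.1 reference sequence of RefSeq, and is shown to let the loci be compared base by base. Capitals mark the codons of 3 conserved histidines, in the pattern histidine, arginine, any residue, histidine, histidine, which was found once in frame in each coding sequence after a first pattern with 1 more residue between arginine and the histidine pair had found none.

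ADS1: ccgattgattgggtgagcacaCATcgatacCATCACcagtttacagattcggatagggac
ADS2: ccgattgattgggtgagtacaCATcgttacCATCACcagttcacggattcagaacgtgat
FAD5: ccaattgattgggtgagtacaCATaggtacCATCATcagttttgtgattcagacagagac
AT3G15870: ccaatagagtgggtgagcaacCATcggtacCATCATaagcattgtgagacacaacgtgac
AT1G06090: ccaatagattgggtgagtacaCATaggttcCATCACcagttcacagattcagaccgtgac
AT1G06100: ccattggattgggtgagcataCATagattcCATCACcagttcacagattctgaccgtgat
AT1G06120: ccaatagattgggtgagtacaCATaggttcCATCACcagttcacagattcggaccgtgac
ADS4: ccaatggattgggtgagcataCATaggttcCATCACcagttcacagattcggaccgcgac
AT1G06360: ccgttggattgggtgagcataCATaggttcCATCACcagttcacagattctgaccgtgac

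In this window *ADS2* differed from *ADS1* at 9 bases, and AT3G15870 differed from it at 20 bases. Over the whole coding sequence, identity between members ran from 65.0% to 93.6% in 36 pairs, with a median of 68.2%. *ADS1* was closest to *ADS2* (78.1%), and their longest run of identical bases was 29. *ADS4* (AT1G06350) was closest to its neighbour AT1G06360 (87.0%, longest run 56 bases). The closest pair of all was AT1G06090 and AT1G06120 (93.6%, longest run 138 bases). Reads within such a run cannot be assigned to either locus, and the level of AT1G06090 is given with that limit, although its estimated reads were whole numbers, within 0.1 read, in all 6 samples.

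Of the 9 loci, 6 lie on chromosome 1 in 2 groups. *ADS1* (TAIR10.1, chr1:1843463-1846311, plus strand, 5 exons), AT1G06090 (chr1:1846701-1849693, plus strand), AT1G06100 and AT1G06120 follow one another, with 389 bases between *ADS1* and AT1G06090. *ADS4* (chr1:1935227-1936841, minus strand, 5 exons) and AT1G06360 lie 77508 bases further along, past 28 annotated genes. *FAD5* and AT3G15870 are neighbours on chromosome 3, and *ADS2* lies by itself on chromosome 2.

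Values are in CPM as deposited, read counts scaled to a common library size, and rested on about 15900000 to 21200000 reads per sample on the listed genes. Fold changes are log2, mutant over wild type, on log2(CPM + 0.5), with the standard error (SE) of a limma fit over all tested genes. A gene was called where its Benjamini-Hochberg adjusted p over all tested genes was below 0.05. This gave 148 called genes of 21287 (0.695%), 120 lower in the mutant (0.564%) and 28 higher (0.132%). All 4 mutated genes were called lower in the mutant by limma, with *STK* at 9.72 to 10.5 CPM in mutant samples, against 49.7 to 54.3 CPM in wild-type samples. *CES* was at 1.65 to 2.06 CPM in mutant samples, against 34.5 to 39.5 CPM in wild-type samples. *BEE3* was at 0 to 0.230 CPM in mutant samples, against 3.71 to 4.88 CPM in wild-type samples. Its mutant values were all under the filter of 0.5 CPM, so *BEE3* entered the comparison only through the wild type, and its call is not read as support. Floral organ identity genes were present in every library, with summed levels of 779 to 841 CPM in mutant samples and 698 to 789 CPM in wild-type samples.

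*ADS1* was the member with the largest difference between the genotypes. Its levels were 17.7, 15.6 and 17.8 CPM in the 3 mutant samples, against 36.4, 33.3 and 35.1 CPM in the 3 wild-type samples. All mutant values lay below all wild-type values, and no mutant sample came near the lowest wild-type sample. The values rested on 271 to 387 reads per mutant sample and 540 to 792 reads per wild-type sample, so counting error was small beside the difference. On average, mutant samples held 48.8% of the wild-type level, and the log2 fold change was -1.02 (SE 0.10). *ADS1* was called lower in the mutant, as 1 of the 7 tested members, beside 0.564% of all tested genes called lower. Since this contrast chose the family, nothing is read from that count.

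The next locus on the chromosome, AT1G06090, was scarcely detected in either genotype. Its levels were 0.871, 0.575 and 1.66 CPM in mutant samples, against 2.30, 2.22 and 1.51 CPM in wild-type samples. Mutant replicate 3 lay above wild-type replicate 3, so the groups overlapped. The values rested on 10 to 33 reads per mutant sample and 28 to 50 reads per wild-type sample. The log2 fold change was -0.75 (SE 0.28), and AT1G06090 was not called. Its annotated transcript is 2313 bases long around a coding sequence of 900 bases, the longest transcript of the family.

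AT1G06100, further along the same group, was at the edge of detection. It had 0.412, 0.460 and 0.554 CPM in mutant samples and 0.552, 0.247 and 0.269 CPM in wild-type samples, which is 8 to 11 reads per mutant sample and 4 to 12 reads per wild-type sample. It was under the filter on low values (more than 0.5 CPM in at least 3 samples) and was not fitted. The groups overlapped, and mutant samples averaged 133.6% of the wild-type level.

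*ADS4* was the most abundant member in both genotypes and lay in the other direction from *ADS1*. It had 139.7, 140.0 and 129.5 CPM in mutant samples, against 113.8, 104.9 and 106.3 CPM in wild-type samples. All mutant values lay above all wild-type values, and mutant samples averaged 125.9% of the wild-type level. The log2 fold change was 0.33 (SE 0.08), and *ADS4* was not called. Its neighbour AT1G06360 had 15.9, 17.7 and 13.9 CPM in mutant samples and 12.8, 14.7 and 11.7 CPM in wild-type samples. In AT1G06360 the groups overlapped, with a log2 fold change of 0.27 (SE 0.13).

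The 3 members outside chromosome 1 had log2 fold changes of -0.08 to 0.16, and none was called. *ADS2* had 101.7, 100.8 and 103.5 CPM in mutant samples and 103.9, 112.5 and 106.0 CPM in wild-type samples. The 3 mutant values of *ADS2* were all below the wild-type values by a small margin, and the log2 fold change was -0.07 (SE 0.07). *FAD5*, the plastid member, had 77.5, 86.0 and 81.5 CPM in mutant samples and 88.4, 89.8 and 81.6 CPM in wild-type samples. In *FAD5* the groups overlapped, with a log2 fold change of -0.08 (SE 0.08). Its neighbour AT3G15870 had 3.20, 4.24 and 2.85 CPM in mutant samples and 3.49, 2.64 and 2.85 CPM in wild-type samples. In AT3G15870 the groups overlapped as well, with a log2 fold change of 0.16 (SE 0.18). The reads behind AT3G15870 were estimated as 69.9, 73.7 and 56.6 in mutant samples and 75.9, 42.9 and 53.0 in wild-type samples, mostly not whole numbers.

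**Figure D1:**
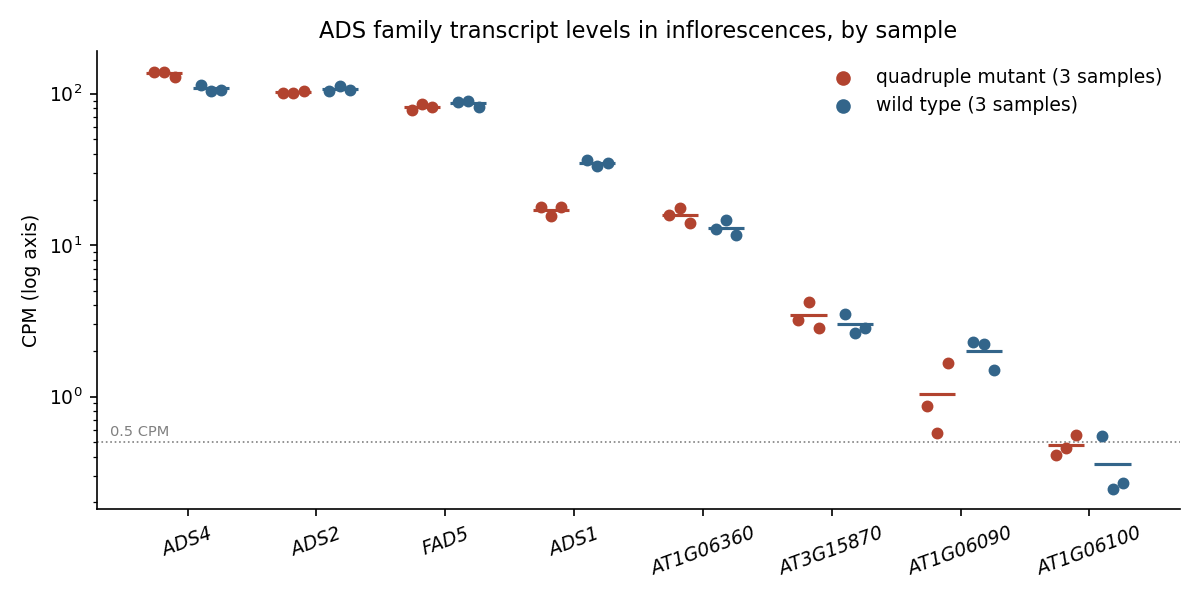
Levels of the 8 listed ADS members in CPM on a log axis, with 3 quadruple mutant samples (left of each pair) and 3 wild-type samples (right of each pair) as points and the group mean as a line. *ADS1* lies at 15.6 to 17.8 CPM in mutant samples and 33.3 to 36.4 CPM in wild-type samples, and AT1G06100 lies about the filter of 0.5 CPM.

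Among the 7 tested members, the genotypes did not overlap in 3, with *ADS1* and *ADS2* lower in the mutant and *ADS4* higher. Of all tested genes, 14.3% had groups that did not overlap, 7.41% with all mutant values lower and 6.92% with all mutant values higher. The log2 fold changes of the members had a median of -0.07, with 3 above 0 and 4 below it, and all tested genes had a median of 0.01. The spread between replicates was narrow in the abundant members. The coefficient of variation of *ADS2* was 1.34% in mutant samples and 4.17% in wild-type samples, and that of *ADS1* was 7.43% in mutant samples and 4.50% in wild-type samples. It was widest in AT1G06090 in the mutant (54.2%) and in AT1G06100 in the wild type (47.8%), the 2 members with the fewest reads.

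To compare levels between members, CPM were divided by the length of the annotated transcript in kb. *ADS4* came first, with 110.2 ± 4.85 CPM per kb in mutant samples and 87.5 ± 3.86 CPM per kb in wild-type samples (SD, n = 3 each, as for all means of CPM per kb here). *ADS2* followed with 59.9 ± 0.803 CPM per kb in mutant samples and 63.1 ± 2.63 CPM per kb in wild-type samples. *FAD5* came next with 45.7 ± 2.37 CPM per kb in mutant samples and 48.4 ± 2.44 CPM per kb in wild-type samples. These 3 members kept the same order in both genotypes, and no sample of one reached the range of the next.

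*ADS1* stood after *FAD5* in both genotypes, and its distance from the next gene in that order differed. It had 12.8 ± 0.950 CPM per kb in mutant samples and 26.2 ± 1.18 CPM per kb in wild-type samples. AT1G06360, the next gene, had 12.3 ± 1.44 CPM per kb in mutant samples and 10.1 ± 1.20 CPM per kb in wild-type samples. *ADS1* was therefore 1.04 times AT1G06360 in the mutant, where the samples of both genes overlapped, and 2.59 times AT1G06360 in the wild type, where they did not. AT3G15870 followed with 2.79 ± 0.588 CPM per kb in mutant samples and 2.44 ± 0.361 CPM per kb in wild-type samples. AT1G06090 had 0.448 ± 0.243 CPM per kb in mutant samples and 0.868 ± 0.189 CPM per kb in wild-type samples. AT1G06100 had 0.496 ± 0.0751 CPM per kb in mutant samples and 0.371 ± 0.178 CPM per kb in wild-type samples. These last 2 members overlapped in the mutant and were apart in the wild type. With coding length in place of transcript length, all 8 members had the same rank in the wild type. In the mutant, AT1G06090 then stood above AT1G06100 (1.15 against 0.528 CPM per kb of coding sequence), the reverse of their order by transcript length.

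Summed over the 8 listed members, family transcript levels overlapped between the genotypes. The sums were 245.0, 249.9 and 238.7 CPM per kb in mutant samples, against 243.9, 240.7 and 232.4 CPM per kb in wild-type samples, so that mutant samples averaged 102.3% of the wild-type sum. *ADS1* made up 5.23 ± 0.491% of this sum in mutant samples and 11.0 ± 0.517% in wild-type samples (SD, n = 3 each). *ADS4* made up 45.0 ± 1.14% in mutant samples and 36.6 ± 1.28% in wild-type samples (SD, n = 3 each). Without *ADS1*, the other 7 members summed to 231.7 ± 6.44 CPM per kb in mutant samples and 212.8 ± 5.86 CPM per kb in wild-type samples. Among these 7, *ADS4* alone had 110.2 CPM per kb in mutant samples and 87.5 CPM per kb in wild-type samples. The means of *ADS2*, *FAD5* and AT1G06090 were lower in mutant samples, and those of AT1G06360, AT3G15870 and AT1G06100 were higher. The log2 ratio of *ADS4* to *ADS1*, which does not depend on how the libraries were scaled, was 3.11 ± 0.15 in mutant samples and 1.74 ± 0.03 in wild-type samples (SD, n = 3 each).

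**Figure D2:**
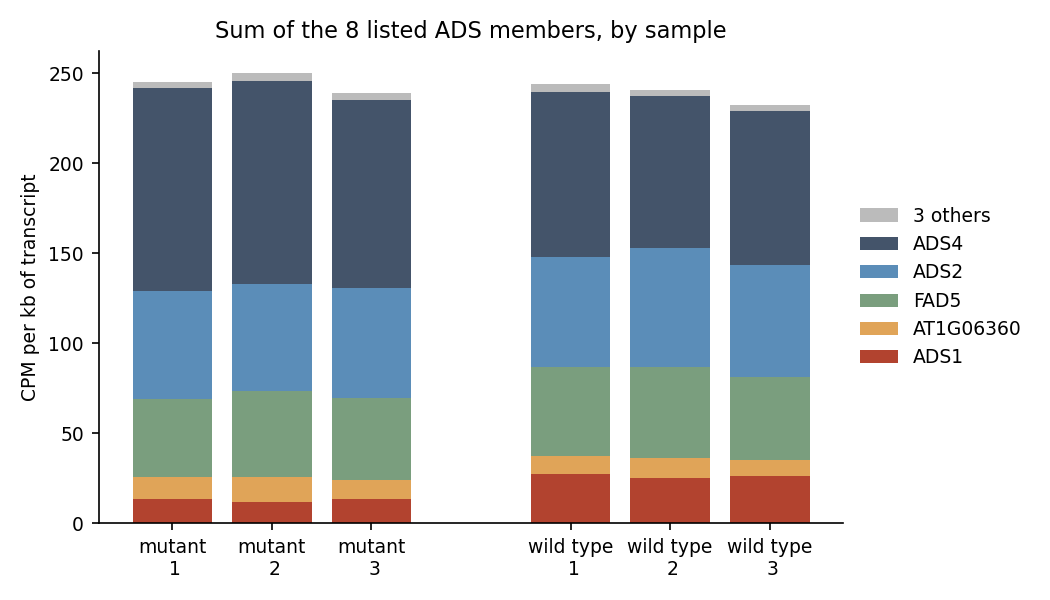
Sum of the 8 listed ADS members in CPM per kb of transcript, as stacked bars for the 3 quadruple mutant samples (left) and the 3 wild-type samples (right), with AT3G15870, AT1G06090 and AT1G06100 drawn together as 3 others. The totals run from 238.7 to 249.9 in mutant samples and from 232.4 to 243.9 in wild-type samples, while the *ADS1* segment is 5.23% of the sum in mutant samples and 11.0% in wild-type samples on average.

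The genes around the chromosome 1 loci were set beside them, since *ADS1* and AT1G06090 are adjacent, as are *ADS4* and AT1G06360. In the stretch from AT1G06040 to AT1G06400, 27 tested genes were not ADS members. None of these 27 was called by limma, against 0.695% of all tested genes. An unadjusted limma p below 0.05 was found in 0 of them, beside 1982 of the 21287 genes tested. Only *RHON1* had groups that did not overlap (62.1, 59.0 and 59.3 CPM in mutant samples, against 52.2, 56.7 and 54.7 CPM in wild-type samples), beside 14.3% of all tested genes. Their log2 fold changes lay between -0.23 and 0.30, with a median of 0.03. The nearest tested gene before *ADS1*, AT1G06070, had a log2 fold change of -0.10 (SE 0.09). *SKIP16*, which lies between AT1G06100 and AT1G06120, had 0.04 (SE 0.10), and *GLX2-4*, the first tested gene after AT1G06120, had -0.06 (SE 0.08). On either side of *ADS4* and AT1G06360, AT1G06340 had 0.30 (SE 0.28) at 0.906 to 0.962 CPM in mutant samples and 0.370 to 1.29 CPM in wild-type samples, and AT1G06380 had -0.23 (SE 0.14).

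**Figure D3:**
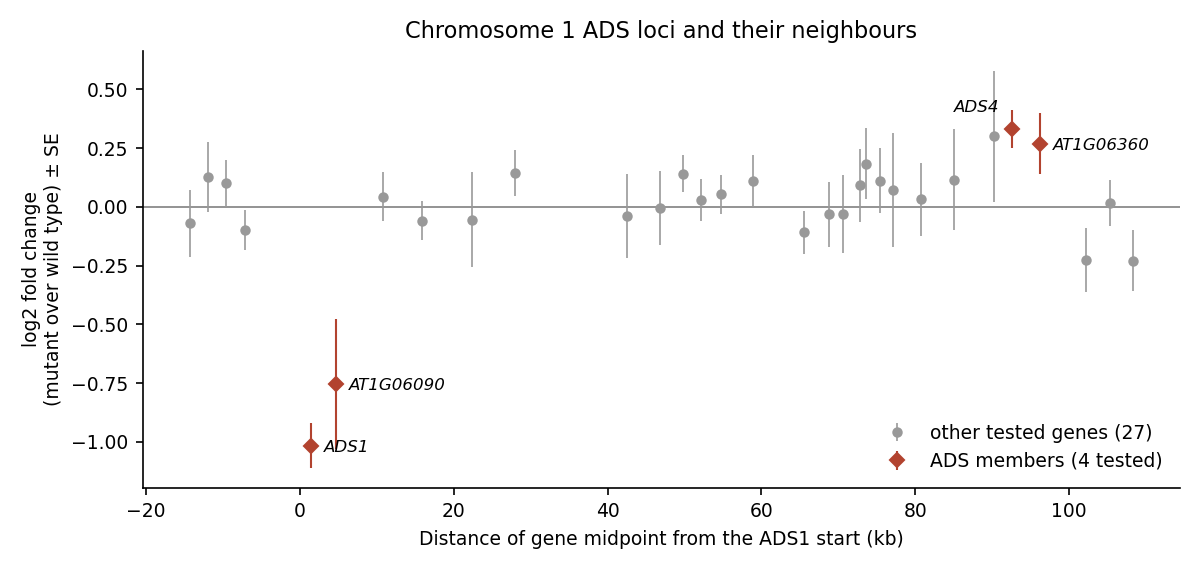
Log2 fold change (mutant over wild type) with SE for the 4 tested ADS members (diamonds) and the 27 other tested genes (circles) of the chromosome 1 stretch, by distance of the gene midpoint from the start of *ADS1* in kb. *ADS1* (-1.02) and AT1G06090 (-0.75) lie below the other genes, which run from -0.23 to 0.30, and *ADS4* (0.33) and AT1G06360 (0.27) lie at their upper edge.

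Sequence upstream of the members is shown because MADS-domain factors such as STK bind CArG boxes and basic helix-loop-helix factors such as CES, BEE1 and BEE3 bind E-boxes, of which the G-box is a form. The 250 bases before the annotated start of *ADS1*, AT1G06090 and *ADS4* are printed in the direction of transcription. Matches on either strand to an E-box (CANNTG) or a CArG box (CCWWWWWWGG, with W for A or T) are in capitals. A G-box (CACGTG) also matches the E-box.

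ADS1, chr1:1843213-1843462, plus strand: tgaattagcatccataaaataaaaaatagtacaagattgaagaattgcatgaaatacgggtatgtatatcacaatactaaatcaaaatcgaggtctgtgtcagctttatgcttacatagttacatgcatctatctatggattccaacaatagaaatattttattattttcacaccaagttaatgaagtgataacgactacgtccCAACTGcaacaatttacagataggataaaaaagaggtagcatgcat
AT1G06090, chr1:1846451-1846700, plus strand: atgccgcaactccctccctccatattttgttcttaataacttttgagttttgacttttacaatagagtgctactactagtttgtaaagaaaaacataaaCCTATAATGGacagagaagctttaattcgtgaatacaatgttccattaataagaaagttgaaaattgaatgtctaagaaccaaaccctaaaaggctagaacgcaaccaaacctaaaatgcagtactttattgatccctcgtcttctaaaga
ADS4, chr1:1936842-1937091, minus strand: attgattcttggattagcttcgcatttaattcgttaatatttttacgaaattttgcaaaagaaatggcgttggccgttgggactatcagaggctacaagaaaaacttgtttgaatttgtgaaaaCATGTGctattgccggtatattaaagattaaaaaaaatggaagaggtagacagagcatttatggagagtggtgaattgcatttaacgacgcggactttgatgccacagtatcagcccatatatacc

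*ADS1* held 1 E-box, 46 bases before its start, and *ADS4* also held 1 E-box. *ADS2*, AT1G06100 and AT1G06120 each held 1 as well, AT1G06360 held 3, and *FAD5* and AT3G15870 held none. An E-box was in 55.3% of the 250-base windows of 27443 protein-coding genes. AT1G06090 held a CArG box and no E-box, and a CArG box was in 2.52% of those windows. The only other member with a CArG box in this window was *FAD5*. Levels overlapped between the genotypes in both AT1G06090 and *FAD5*, and neither was called. No member held a G-box in 250 bases, as against 6.49% of all windows. Within 500 bases, *ADS1* held neither a G-box nor a CArG box, which 9.35% and 4.21% of all windows held. This search used fixed patterns, whereas the study scored promoters with binding site matrices. The study lists *ADS1* among genes that earlier work gave as direct targets of STK. From these same libraries, with its own test, the study reported *ADS1* as lower in the mutant. It also reports the lower level of *ADS1* in the mutant by qRT-PCR. Whether STK acts on *ADS1* was not tested here.

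Patterns over the 6 samples were compared with that of *ADS1* among 16720 genes with a mean of at least 5 CPM, by the root mean square difference of centred log2(CPM + 0.5) values. The closest gene was *UTR2*, annotated as a UDP-galactose transporter, with a difference of 0.12, where all genes had a median of 0.54. *UTR2* had 13.8, 14.6 and 14.4 CPM in mutant samples, against 28.3, 31.0 and 27.3 CPM in wild-type samples. The next were *LHT1* (0.12), an amino acid transporter, the glycosyl hydrolase gene AT1G32860 (0.12), the serine carboxypeptidase-like gene *scpl41* (0.13) and AT5G47590 (0.13). These genes were picked for their likeness to *ADS1* over the same samples, so their difference between the genotypes is no separate result. Of the other ADS members, only *ADS2*, *FAD5*, *ADS4* and AT1G06360 had the mean of 5 CPM needed for this comparison. None of them was close to *ADS1*, with *ADS2* at 0.48 (rank 3301), *FAD5* at 0.48 (rank 3380), AT1G06360 at 0.67 (rank 15840) and *ADS4* at 0.68 (rank 15951). AT1G06090, AT3G15870 and AT1G06100 were below that mean and were not compared. The ranks of the members largely restate their differences between the genotypes, on which the family was chosen, and are no separate result either.

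Genes of lipid metabolism that act before, beside or after the ADS enzymes were described from 8 lists, with 109 of 112 genes tested. Of the 109 genes, 0 were called higher and 1 was called lower by limma, against 0.695% of all tested genes, and 16 had an unadjusted p below 0.05, beside 1982 of the 21287 genes tested. Log2 fold changes were above 0 in 85 genes and below 0 in 24, with a median of 0.08, beside a median of 0.01 and 11082 of 21287 above 0 over all tested genes. The groups did not overlap in 19 of the 109 genes, 13 higher and 6 lower in the mutant, beside 6.92% higher and 7.41% lower over all tested genes.

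The one called gene was *KCS16*, a 3-ketoacyl-CoA synthase of very-long-chain fatty acid elongation, the pathway that makes the longest acyl chains. It had 0.412, 0.345 and 0.403 CPM in mutant samples, against 7.17, 6.04 and 4.74 CPM in wild-type samples. In the limma fit it stood at -2.85 on the log2 scale (SE 0.19), and this scale understates a change at levels below the pseudocount. All 3 mutant values were under the filter of 0.5 CPM, so *KCS16* entered the comparison only through the wild type, where it was high, and its call is not read as support. Among the other 22 tested elongation genes the largest difference was in *KCS17* (log2 0.37, SE 0.14, limma adjusted p = 0.41). The median of the elongation list was 0.10, and 5 of its 23 tested genes had an unadjusted limma p below 0.05.

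Desaturases outside the family gave no limma call, and 1 of the 16 tested had an unadjusted p below 0.05. Among 9 other membrane desaturases, 8 log2 fold changes were above 0, with a median of 0.13 and a range of -0.03 to 0.24. The largest were in *SLD2*, a sphingolipid desaturase (0.24, SE 0.19, limma adjusted p = 0.78), and *FAD8*, a plastid omega-3 desaturase (0.22, SE 0.15, limma adjusted p = 0.74). Among 7 soluble acyl-ACP desaturases, which act in the plastid on acyl chains bound to carrier protein, the median was 0.08. AT3G02610 of this list had 1.01, 1.21 and 1.21 CPM in mutant samples, against 2.76, 2.10 and 2.05 CPM in wild-type samples. Its groups did not overlap, and its log2 fold change of -0.76 (SE 0.18) missed the threshold (limma adjusted p = 0.15). AT3G02630, with the next largest difference, had 0.17 (SE 0.11, limma adjusted p = 0.70).

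Cytochrome b5 and its reductase donate electrons to membrane desaturases outside the plastid. None of the 6 genes tested was called, with 1 at an unadjusted limma p below 0.05. Electron donors of plastid desaturases such as *FAD5* were not listed. *CB5-C*, a cytochrome b5 gene, had 11.1, 11.7 and 9.67 CPM in mutant samples, against 7.04, 7.52 and 6.24 CPM in wild-type samples. Its groups did not overlap, and it was higher in the mutant by 0.61 on the log2 scale without passing the threshold (SE 0.13, limma adjusted p = 0.11). For the reductase gene *CBR* the value was 0.17 (SE 0.08, limma adjusted p = 0.57).

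Fatty acid synthesis in the plastid, which supplies the acyl chains, gave no call among 20 genes, 3 of them at an unadjusted limma p below 0.05, with a median of 0.09. The largest differences were in *MOD1*, the enoyl-ACP reductase (0.28, SE 0.10, limma adjusted p = 0.41), and *KAS III*, the enzyme of the first condensation (0.25, SE 0.08, limma adjusted p = 0.33). In galactolipid and plastid lipid assembly, with 10 genes, 1 of them at an unadjusted limma p below 0.05, and a median of 0.01, *MGDC* had -0.51 (SE 0.17, limma adjusted p = 0.36) and *SQD1* had 0.14 (SE 0.09, limma adjusted p = 0.72). In sphingolipid synthesis, with 12 genes, 1 of them at an unadjusted limma p below 0.05, and a median of 0.03, the fatty acid hydroxylase gene *FAH1* had -0.23 (SE 0.09, limma adjusted p = 0.48) and the ceramide synthase gene *LAG13* had 0.20 (SE 0.12, limma adjusted p = 0.69).

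Acyl activation and glycerolipid acyltransferases, 22 genes with a median of 0.12 and 4 at an unadjusted limma p below 0.05, held the gene nearest to the threshold. *GPAT1*, a glycerol-3-phosphate acyltransferase known for its role in the tapetum, had 23.4, 24.5 and 26.7 CPM in mutant samples, against 48.2, 48.4 and 33.6 CPM in wild-type samples. Its groups did not overlap, and wild-type replicate 3 was nearer to the mutant samples than the others of its group. The fit put *GPAT1* at -0.77 on the log2 scale (SE 0.14, limma adjusted p = 0.053). It passed the threshold without wild-type replicate 3 (-0.95, limma adjusted p = 0.0061), with scaling to column totals (limma adjusted p = 0.038) and with upper quartile scaling (limma adjusted p = 0.042). The study, with its own test on these libraries, listed *GPAT1* as downregulated in the mutant. *GPAT3* had -0.43 (SE 0.47, limma adjusted p = 0.86), set by wild-type replicate 2 at 18.3 CPM beside 4.20 and 6.44 CPM in the other wild-type samples, and it was 0.14 without that replicate.

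**Figure D4:**
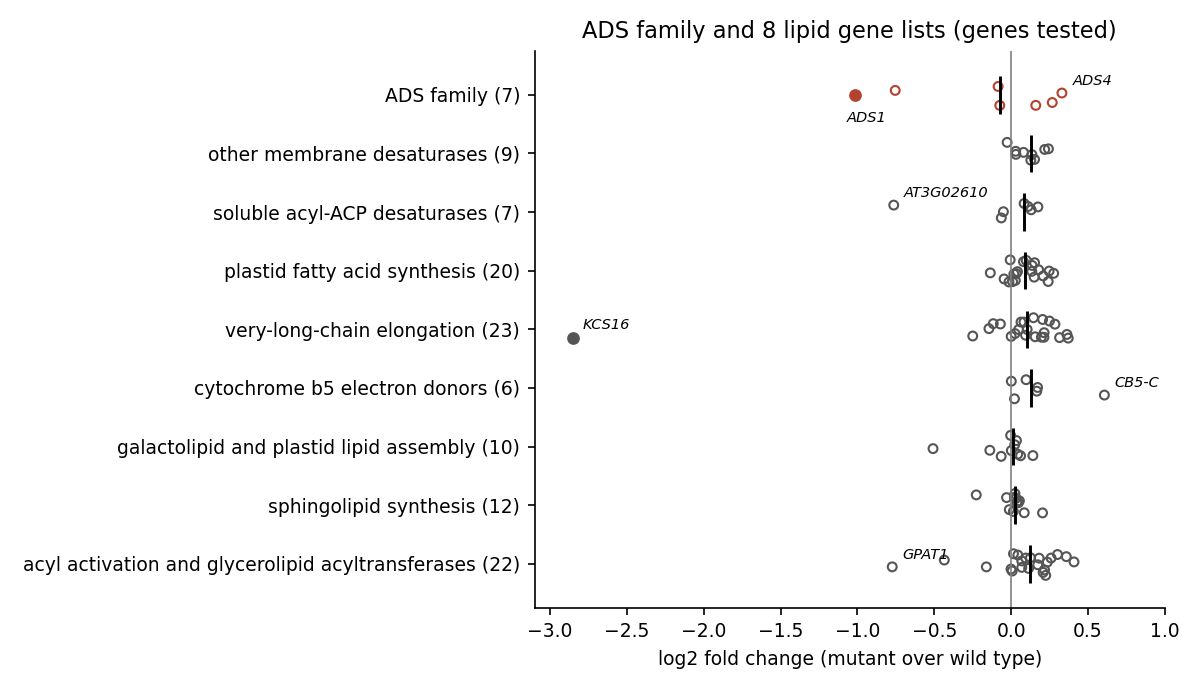
Log2 fold change (mutant over wild type) of every tested gene of the ADS family and of the 8 lipid lists, 1 point per gene, with called genes filled and the median of each list as a vertical line. *ADS1* (-1.02) and *KCS16* (-2.85) are the filled points, and the list medians lie between -0.07 and 0.13.

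Marker genes of tissues that an inflorescence sample could hold in unequal amounts were listed beside these results. None of the 6 tested tapetum markers was called by limma, and their sums overlapped (210.2 to 289.3 CPM in mutant samples, 204.1 to 330.5 CPM in wild-type samples). None of 6 late pollen markers was called (2625 to 3138 CPM in mutant samples, 2338 to 3256 CPM in wild-type samples), nor of 6 green tissue markers (7520 to 9920 CPM in mutant samples, 8185 to 8309 CPM in wild-type samples). The 5 markers of the carpel margin and transmitting tract summed to 43.2 to 48.4 CPM in mutant samples and 42.7 to 49.2 CPM in wild-type samples, and none was called. At an unadjusted limma p below 0.05 were 3 of these 5, 1 of the 7 floral organ identity genes and 0 of the tapetum, late pollen and green tissue markers, beside 1982 of the 21287 genes tested. *NTT*, a transmitting tract regulator, had 9.06 to 13.5 CPM in mutant samples, against 14.3 to 19.0 CPM in wild-type samples, without overlap, and stood at -0.47 on the log2 scale (SE 0.17, limma adjusted p = 0.38). *HEC3*, of the same list, had 4.43 to 6.85 CPM in mutant samples, against 3.44 to 4.32 CPM in wild-type samples, also without overlap (0.56, SE 0.18, limma adjusted p = 0.33). *SPT*, the other marker of this list without overlap, had 25.5 to 27.4 CPM in mutant samples, against 22.2 to 23.3 CPM in wild-type samples (0.22, SE 0.09, limma adjusted p = 0.46). Of the 7 floral organ identity genes, *AP1* (107.1 to 116.7 against 89.7 to 104.6 CPM) and *SEP3* (194.9 to 200.9 against 170.7 to 191.1 CPM) were also higher in mutant samples without overlap. Groups did not overlap in 14.3% of all tested genes. The part of any of these tissues in the level of *ADS1* was not tested.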

How the data were processed

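RNA from 3 quadruple mutant and 3 wild-type inflorescence samples was sequenced from directional poly(A) libraries. Per the labels and the methods of the study, the authors mapped reads to TAIR10 with Bowtie2, estimated gene levels with RSEM and scaled them with edgeR, and deposited CPM for 21801 genes, of which 2 rows had no values. The deposited table also held log2 fold changes, p-values and FDR of the authors' own comparison, which were not used. Replicates are the samples so labelled, each a pool of plants.

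Here log2(CPM + 0.5) was fitted with limma 3.58.1 in R 4.3.3 (lmFit, eBayes with trend, genotype only) over every gene that exceeded 0.5 CPM in 3 samples or more. Benjamini-Hochberg adjustment ran over the 21287 genes tested, and an adjusted p below 0.05 was a call. The study's own quasi-likelihood test needs counts, for which RSEM gives estimates that need not be whole. From the spacing of low values, 1 read was worth 0.0458 to 0.0617 CPM, which gave the reads behind each value. Of low values, 93.7% to 95.1% came out whole (within 0.1 read), and the choice here was to run no test on recovered reads. A floor of 3 reads is 0.138 to 0.185 CPM. The fit was tested on simulated data. Transcript lengths, neighbours and sequences came from RefSeq TAIR10.1 (the longest coding model of each gene where several exist), read with Python 3.11.15. Motifs were searched on both strands.

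The members and lists were chosen with earlier results of these data known. Named genes were all 9 loci, the 4 mutated genes, in each lipid list every called gene or, with fewer than 2, the 2 with the largest absolute fold change, the neighbours of the chromosome 1 loci, and the 5 genes most like *ADS1*. *RHON1*, *NTT*, *HEC3*, *SPT*, *AP1* and *SEP3* were named after their values were seen. Alternatives were other pseudocounts, filters and scalings, a replicate block, and each replicate left out.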

Additional observations from a re-analysis of the deposited data

How the results depend on the processing

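With 3 samples per genotype, small differences could not be resolved. For the members, which were chosen on this contrast, the settings give a description only, and the log2 fold change of *ADS1* ran from -1.05 to -0.95 over the 19 alternative settings. The count of called genes was 148, and leaving out 1 replicate over the same genes gave 61 (wild-type replicate 1) to 159 (wild-type replicate 2). With the filter applied again to the remaining 5 samples, an alternative chosen after seeing the data and after counts of both versions had been seen, it was 73, 75 and 107 without mutant replicates 1, 2 and 3, and 28, 114 and 46 without those of the wild type in the same order. A block by replicate number gave 64 calls, 63 of them shared with the 148. The numbers recur in both genotypes, but samples of the same number did not deviate together (correlations of -0.11, -0.16 and -0.10). The numbers were therefore not read as pairs. Between samples of different numbers the correlations ran from -0.16 to 0.25, and no such pairing was fitted. The count of called members was 1 with the block as without it. The count of called lipid genes was 1 and became 2, by *GPAT1*, with upper quartile scaling and with column totals. Over left-out replicates it was 1 to 2. With the filter applied again, *KCS16* was no longer among the genes tested, whichever wild-type replicate was left out. The count of called lipid genes was then 0 without wild-type replicate 1 or 2, and 1, by *GPAT1*, without wild-type replicate 3. *GPAT3* ran from -0.86 (without wild-type replicate 3) to 0.14 (without wild-type replicate 2), a reversal.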
